A study of Homo sapiens with 12 samples.

Results

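The *HES* and *HEY* genes encode transcriptional repressors, and 8 of them were followed here across 12 RNA-seq libraries of a lung cancer cell line. The members were taken by name, as *HES1*, *HES2*, *HES4*, *HES6*, *HES7*, *HEY1*, *HEY2* and *HEYL*, with earlier results of these data known. *HES3* and *HES5*, which had at most 2 counts in any library, were not among them. All 8 were found among 58302 gene identifiers in the count table, and all 8 passed the filter on low counts that left 17188 genes for testing. *HEY1* and *HES1* changed most. *HEY1* rose 2.69-fold with BMP signaling in MIB1 WT cells and 4.96-fold in MIB1 KO cells, and *HES1* rose 1.83-fold and 2.27-fold. *HES6* and *HEYL* passed the test in KO cells and not in WT cells, although the difference between the responses did not pass for either, and *HES2*, *HES4*, *HES7* and *HEY2* passed the test in neither response. With a correction for the GC content of transcripts, *HES6* and *HEYL* no longer passed, and *HES7* was called lower in both responses and *HES4* lower in KO cells.

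HES and HEY proteins are basic helix-loop-helix repressors with an Orange domain. They bind E box or N box sequences as dimers, and HES proteins recruit TLE corepressors through a short motif at their C terminus. Several of them are classic targets of Notch: cleaved Notch enters the nucleus, joins the DNA-binding protein RBPJ and a MAML coactivator, and switches on *HES1*, *HEY1*, *HEY2* and *HEYL*. *HEY1* and *HES1* are also known to respond to BMP, whose receptors phosphorylate SMAD1, SMAD5 and SMAD9. MIB1 is an E3 ubiquitin ligase known for activating Notch ligands in the cells that send the signal, so that this family sits where both pathways meet.

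The cells were NCIH838 cells, a line from a human lung cancer, carrying a doxycycline (Dox)-inducible Cas9 construct against *MIB1* (MIB1-iKO). According to the methods the MIB1-iKO lines were single-cell clones, and the clone and guide used for these libraries are not given in the sources used here. All cells were kept in 50 nM LDN, a BMP receptor inhibitor, for 3 days, with 0.5 µg/mL Dox (MIB1 KO) or with no Dox (MIB1 WT). All then received 10 ng/mL BMP4 for 24 hours. BMP-off cells stayed in 50 nM LDN during this time, and BMP-on cells received DMSO in its place, so that BMP-off means BMP4 with its receptors blocked. Dox and Cas9 activity went with the KO in every library and cannot be told apart from the loss of *MIB1*. The labels and protocol spell the inhibitor as LDN193189 in one place and LDN189193 in another. The 4 groups held 3 libraries each, and nothing says that replicates came from separate cultures, so that p-values measure the spread between these libraries.

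Library totals ran from 19124010 to 29498000 counts. *MIB1* transcript ranged from 144 to 176 CPM (counts scaled by library size, here with TMM factors) in the 6 WT libraries and from 31.0 to 34.4 CPM in the 6 KO libraries. The epithelial markers *KRT8*, *KRT18*, *EPCAM* and *CDH1* were present, with at least 100 counts each in every library, whereas *KRT19* had at most 2 counts. Of the lung markers, *NKX2-1*, *SFTPB* and *SFTPC* had at most 2 counts in any library and *NAPSA* from 6 to 27 counts, so that these transcripts do not mark the cells as lung. *PTPRC*, which marks leukocytes, had 0 counts throughout, and *COL1A1*, a collagen gene also made by fibroblasts, had 275 to 1071. Of further immune, endothelial and fibroblast markers, *CD3E*, *CD68*, *PECAM1*, *CDH5*, *VWF*, *COL3A1* and *PDGFRB* had at most 42. Libraries of the same group differed in how counts followed the GC content of transcripts. The Spearman's rho across genes between this GC content and the deviation from the group mean ran from -0.603 in KO BMP-off replicate 2 to 0.586 in KO BMP-off replicate 3, and its cause was not tested. Many of the values are also given with a GC correction, in which a smooth trend on transcript GC content was removed from each library. That trend was fitted to the deviation from the mean of all 12 libraries, not from the group mean. GC trends that differ between groups were thus removed as well, and whether these come from the cells was not tested.

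In the GENCODE v44 annotation of GRCh38, *HES2* (ENSG00000069812, 6412418 to 6424670), *HES4* (ENSG00000188290, 998962 to 1000172) and *HEYL* (ENSG00000163909, 39623435 to 39639643) all lie on the minus strand of chromosome 1. *HES6* (ENSG00000144485) spans 238238267 to 238240662 on the minus strand of chromosome 2. *HES1* (ENSG00000114315) spans 194136148 to 194138732 on the plus strand of chromosome 3. *HEY2* (ENSG00000135547) spans 125747664 to 125761269 on the plus strand of chromosome 6, *HEY1* (ENSG00000164683) 79762371 to 79767857 on the minus strand of chromosome 8, and *HES7* (ENSG00000179111) 8120592 to 8124106 on the minus strand of chromosome 17. Counts were taken over exons. *HES6*, *HEY2* and *HEYL* each overlap an annotated gene on the opposite strand (ENSG00000225057, *HEY2-AS1* and ENSG00000225903). Of the 2 library kits that the protocol names, 1 marks strand, and which kit served here is not stated, so that reads of these overlapping genes cannot be told apart. The longest transcripts of the family span a wide range of GC content, from 45.1% for *HEY1*, 47.0% for *HEY2* and 50.0% for *HES1* through 56.0% for *HEYL*, 57.5% for *HES2*, 63.4% for *HES7* and 68.4% for *HES6* to 73.9% for *HES4*. The median over the genes tested was 47.8%, and the 90th percentile was 61.0%.

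Levels per length, as the RPKM values (reads scaled by gene length and library size) that the authors deposited, put *HES1* first in each of the 4 groups. In WT BMP-off cells *HES1* stood at 6.54 ± 0.231 RPKM (SD, n = 3). *HES7* (4.57 ± 0.664) and *HEYL* (4.21 ± 0.255) followed and overlapped between libraries. *HES4* (3.00 ± 0.706) and *HEY1* (2.09 ± 0.183) came next and overlapped as well. *HES6* (0.787 ± 0.0765), *HES2* (0.374 ± 0.0588) and *HEY2* (0.0962 ± 0.0545) were lower and did not overlap each other. In KO BMP-on cells *HEY1* stood next after *HES1*, at 13.2 ± 0.698 RPKM against 17.3 ± 1.01 RPKM for *HES1*, and the libraries of these genes did not overlap. Below them came *HEYL* (5.0 ± 0.481), *HES7* (2.93 ± 0.451), *HES4* (2.09 ± 0.321), *HES6* (0.942 ± 0.171), *HES2* (0.267 ± 0.0278) and *HEY2* (0.215 ± 0.0402), of which *HES2* and *HEY2* overlapped. *HEY1* had thus passed *HES7*, *HEYL* and *HES4*, and *HEYL* and *HES7*, which overlapped in WT BMP-off cells, stood in the other order and apart.

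Summed over the 8 genes, the RPKM values came to 21.7 ± 1.64 in WT BMP-off, 29.7 ± 0.231 in WT BMP-on, 21.5 ± 1.77 in KO BMP-off and 41.9 ± 0.493 in KO BMP-on cells (SD, n = 3 each). *HES1* and *HEY1* together made up 39.9% ± 2.29 of this sum in WT BMP-off cells and 58.6% ± 4.69 in WT BMP-on cells. They made up 49.2% ± 3.99 in KO BMP-off cells and 72.7% ± 3.13 in KO BMP-on cells. The part of *HEY1* alone went from 9.64% ± 0.875 in WT BMP-off to 31.4% ± 1.33 in KO BMP-on cells, while that of *HES7* went from 21.1% ± 1.55 to 7.01% ± 1.14. These parts describe the deposited values and were not tested.

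**Figure D1:**
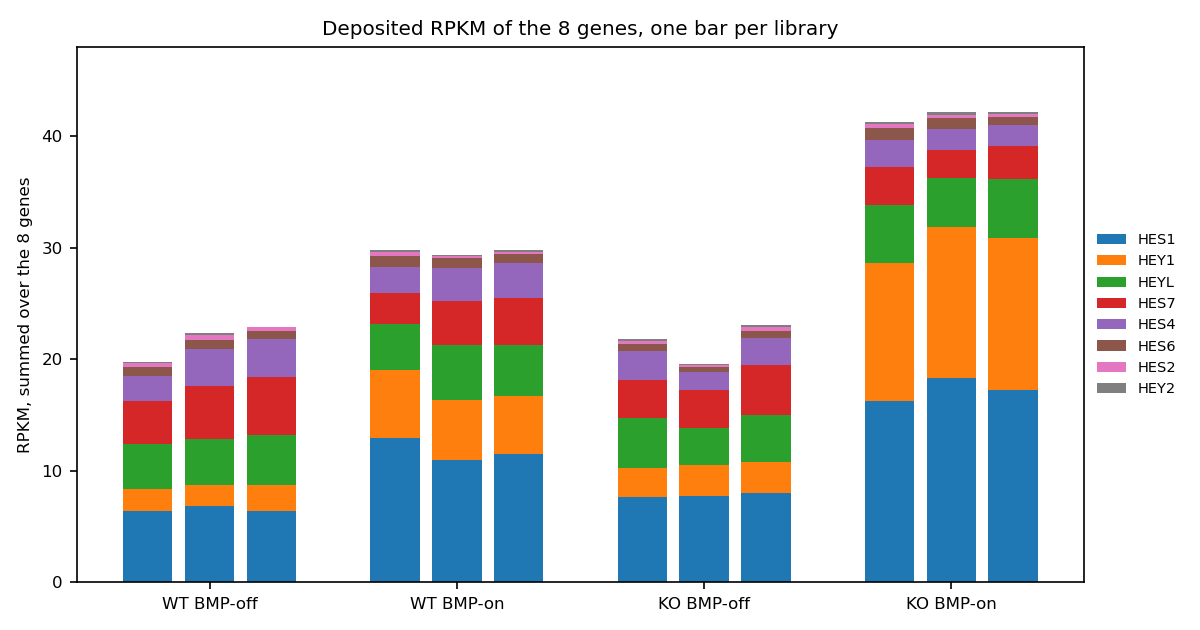
Stacked bars of deposited RPKM for the 8 *HES* and *HEY* genes, 1 bar per library and 3 libraries per group (y axis, RPKM summed over the genes). The sum is highest in the KO BMP-on libraries, from 41.3 to 42.2 RPKM, and *HES1* and *HEY1* take up 69.3% to 75.5% of it there.

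*HEY1*, a repressor best known from the developing heart and vessels, gave the clearest response. The 3 WT BMP-off libraries held 4.99, 4.78 and 5.64 CPM of it, and the 3 WT BMP-on libraries 15.1, 13.3 and 13 CPM. In KO cells the BMP-off libraries stood at 6.49, 6.63 and 6.86 CPM and the BMP-on libraries at 31.1, 33.7 and 34.2 CPM. None of the 4 groups overlapped another, and the KO BMP-on libraries were the highest. The log2 fold change with BMP-on came to 1.43 for WT (standard error 0.094, adjusted p = 1.13e-07 by edgeR with Benjamini-Hochberg adjustment) and to 2.31 for KO cells (standard error 0.087, edgeR adjusted p = 3.65e-11). With each library left out in turn, it stayed between 1.36 and 1.49 in WT and between 2.28 and 2.34 in KO cells. In bulk RNA, fewer cells of a kind and less RNA per cell cannot be told apart, and this holds for every level given here.

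*HES1*, which keeps progenitor cells of many tissues from differentiating and is known to repress its own gene, moved in the same direction by less. It held 9.52, 10.3 and 9.73 CPM in WT BMP-off and 19.7, 16.8 and 17.6 CPM in WT BMP-on libraries. The KO BMP-off libraries held 11.5, 11.3 and 12.2 CPM and the KO BMP-on libraries 25.1, 28.0 and 26.4 CPM. Again no group overlapped another. The log2 fold change was 0.87 in WT cells (standard error 0.082, edgeR adjusted p = 7.30e-06) and 1.18 for KO (standard error 0.08, edgeR adjusted p = 5.52e-08), and all 12 fits with 1 library left out passed in both. Over the 12 libraries the log2 CPM of *HES1* and *HEY1* had a Pearson's r of 0.991, which rests on the 4 group means, since r was 0.488 once the group means were removed.

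**Figure D2:**
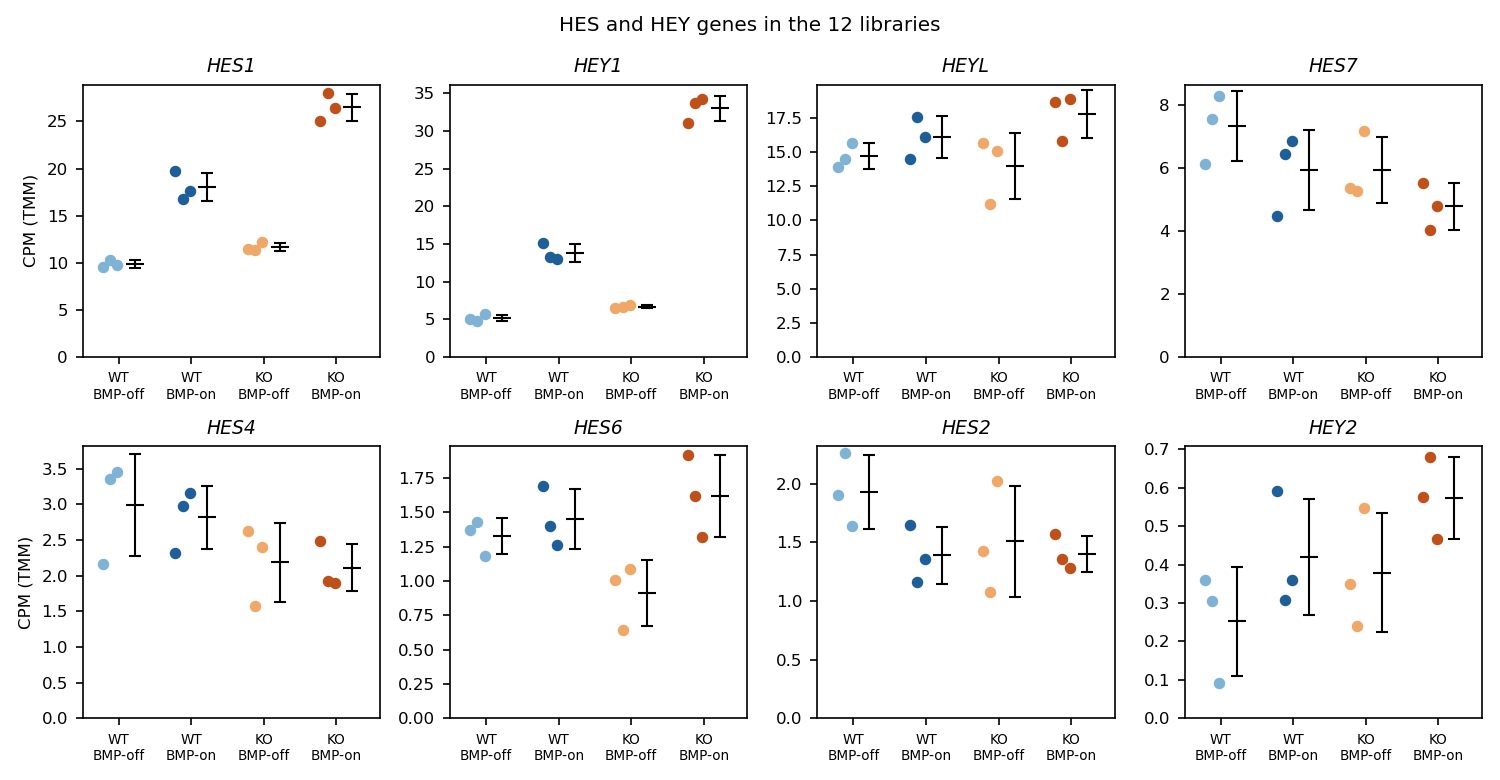
CPM at TMM-scaled library sizes for each gene (y axis from 0, own scale per panel) in WT BMP-off, WT BMP-on, KO BMP-off and KO BMP-on libraries. Points are the 3 libraries of a group and bars its mean and SD. *HES1* and *HEY1* separate the 4 groups, whereas most other panels overlap.

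Sequences upstream of the start site are shown for *HES1*, which rose in both responses, for *HEYL* and *HES6*, which were called in the KO response, and for *HES4*, which was called in neither. They are the 250 bases before the RefSeq start in GRCh38.p14, read 5′ to 3′ on the strand of the gene. Of the 8 members, 7 have such a window in the reference used. *HEY1* has none, so that its promoter was not searched. Capitals mark TGGGAA, the core that RBPJ recognizes, and GGCGCC, a GC-rich core bound by BMP-activated SMADs, on either strand. The windows are chr3:194135898-194136147 for *HES1*, chr1:39639644-39639893 for *HEYL*, chr2:238240039-238240288 for *HES6* and chr1:1000098-1000347 for *HES4*. RefSeq and GENCODE differ in the starts of *HES2*, *HES4*, *HES6* and *HEY2*. The *HES2*, *HES6* and *HEY2* windows thus lie within the GENCODE spans of their genes, and the *HES4* window partly overlaps that of its gene.
HES1: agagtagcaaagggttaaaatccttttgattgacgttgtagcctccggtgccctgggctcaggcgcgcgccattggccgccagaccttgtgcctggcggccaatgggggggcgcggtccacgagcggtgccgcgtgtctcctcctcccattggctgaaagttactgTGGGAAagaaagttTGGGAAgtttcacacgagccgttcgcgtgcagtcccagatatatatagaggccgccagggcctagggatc
HEYL: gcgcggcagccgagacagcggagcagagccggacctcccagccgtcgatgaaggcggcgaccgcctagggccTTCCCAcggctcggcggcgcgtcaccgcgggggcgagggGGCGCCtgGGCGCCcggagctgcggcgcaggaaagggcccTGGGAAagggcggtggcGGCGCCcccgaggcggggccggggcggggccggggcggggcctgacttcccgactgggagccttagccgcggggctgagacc
HES6: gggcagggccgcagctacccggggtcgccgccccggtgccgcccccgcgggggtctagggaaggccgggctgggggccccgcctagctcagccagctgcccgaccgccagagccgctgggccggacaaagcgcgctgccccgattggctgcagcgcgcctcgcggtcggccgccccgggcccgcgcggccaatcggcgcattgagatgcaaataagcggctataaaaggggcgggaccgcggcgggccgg
HES4: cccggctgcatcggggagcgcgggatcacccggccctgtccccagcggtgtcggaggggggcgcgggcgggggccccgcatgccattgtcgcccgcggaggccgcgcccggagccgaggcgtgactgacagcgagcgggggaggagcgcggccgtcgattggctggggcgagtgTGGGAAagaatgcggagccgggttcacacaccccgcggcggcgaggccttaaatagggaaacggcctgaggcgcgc

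The *HES1* window holds TGGGAA at -84 to -79 and again at -70 to -65, counted from the start site. *HES4* holds 1 copy at -76 to -71, *HEYL* 2 copies, *HEY2* 1 copy, and *HES2*, *HES6* and *HES7* none. TGGGAA or its complement TTCCCA occurs in 20.8% of 35116 such windows. GGCGCC occurs 3 times in the *HEYL* window and 1 time each in those of *HES2* and *HEY2*, and in 16.4% of all windows. The N box CACNAG and the E box variant CACGNG, which HES and HEY proteins can bind and which share the form CACGAG, were searched on both strands too. The *HES1* window holds 3 and 4 of these, of which 2 are the same bases, and the *HES7* window 1 that counts as both, while the other 5 hold none. They occur in 32.0% and 26.7% of all windows. The GC content of the windows was 59.2% for *HES1*, 74.8% for *HES4*, 77.2% for *HES6* and 79.6% for *HEYL*, where the median of all windows was 58.0%. These matches describe letters in the window and not binding.

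*HEYL*, a relative of *HEY1* expressed in vascular smooth muscle, changed little. It held 13.9, 14.5 and 15.7 CPM in WT BMP-off, 14.5, 17.6 and 16.1 CPM in WT BMP-on, 15.7, 11.2 and 15.1 CPM in KO BMP-off and 18.7, 15.8 and 18.9 CPM in KO BMP-on libraries. The WT groups overlapped and the KO groups were separated by a narrow gap, between 15.7 and 15.8 CPM. The log2 fold change was 0.13 in WT cells (standard error 0.12, edgeR adjusted p = 0.647) and 0.35 for KO (standard error 0.12, edgeR adjusted p = 0.0417). The KO call was lost in 5 of the 12 fits with 1 library left out, with adjusted p values of 0.152 without KO BMP-off replicate 2 (log2 fold change 0.21), 0.135 and 0.125 without KO BMP-on replicates 1 and 3, 0.059 without WT BMP-off replicate 2 and 0.0528 without WT BMP-on replicate 3. It was lost in 11 of 24 alternatives in all, among them the GC correction (0.21, edgeR adjusted p = 0.0822), limma-voom (0.0569), the KO groups fitted alone (0.1) and both fits on RPKM (0.0954 and 0.0953).

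*HES6*, which unlike its relatives is known to inhibit HES1 and to favor neuronal differentiation, was a rare transcript with 16 to 50 counts per library. It held 1.37, 1.43 and 1.18 CPM in WT BMP-off and 1.69, 1.40 and 1.26 CPM in WT BMP-on libraries, which overlapped. In KO cells it held 1.01, 0.643 and 1.09 CPM with BMP-off and 1.92, 1.62 and 1.32 CPM with BMP-on, which did not. The log2 fold change was 0.11 in WT cells (standard error 0.21, edgeR adjusted p = 0.857) and 0.82 for KO (standard error 0.23, edgeR adjusted p = 0.0175). KO BMP-off replicate 2, the lowest library for *HES6*, was also the library with the lowest GC trend. Without it the log2 fold change in KO cells was 0.62 (edgeR adjusted p = 0.0817), without KO BMP-on replicate 1 it was 0.65 (0.108), and with the GC correction it was 0.30 (0.367).

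*HES4*, *HES7*, *HES2* and *HEY2* did not pass the test in either response without the GC correction. *HES7*, the oscillating repressor of the somite clock, held 6.11, 7.56 and 8.28 CPM in WT BMP-off, 4.47, 6.43 and 6.86 in WT BMP-on, 5.37, 5.26 and 7.15 in KO BMP-off and 5.52, 4.02 and 4.78 CPM in KO BMP-on libraries. Its libraries overlapped in both responses, and its log2 fold changes were -0.29 for WT and -0.30 for KO cells (standard errors 0.17 and 0.18, edgeR adjusted p = 0.475 and 0.265). With the GC correction they were -0.41 and -0.67 and passed (edgeR adjusted p = 0.0423 and 0.000685). *HES4*, which has no ortholog in the mouse, held 2.16, 3.35 and 3.46 CPM in WT BMP-off and 2.32, 2.98 and 3.16 in WT BMP-on libraries. Its KO BMP-off libraries held 2.62, 1.57 and 2.40 CPM and its KO BMP-on libraries 2.49, 1.93 and 1.90 CPM. Its log2 fold changes were -0.06 in both cells (standard errors 0.21 and 0.23, edgeR adjusted p = 0.929 and 0.892), and -0.32 and -0.73 with the GC correction, which passed in KO cells (0.22 and 0.00226). *HES2* ranged from 1.08 to 2.26 CPM over the 12 libraries, and its log2 fold change was -0.49 in WT (standard error 0.22, edgeR adjusted p = 0.294) and -0.09 for KO (standard error 0.23, 0.81). With the GC correction its log2 fold changes were -0.54 and -0.28 (edgeR adjusted p = 0.0995 and 0.384). *HEY2*, a partner of *HEY1* in heart and artery development, had only 2 to 15 counts per library. Its log2 fold changes of 0.65 and 0.58 came with standard errors of 0.45 and 0.40 and edgeR adjusted p values of 0.562 and 0.317, so that in WT cells a change of the size of that of *HES1* was less than 2 standard errors.

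In the BMP response of WT cells, 2 of the 8 genes were thus called higher (*HEY1* and *HES1*) and 0 lower. Of the 17188 genes tested, 1.91% were called higher and 2.01% lower. In the response of KO cells, 4 of 8 were called higher and 0 lower, against 11.1% and 10.9% of the genes tested. With the GC correction 2 were called higher (*HEY1* and *HES1*) and 2 lower (*HES4* and *HES7*) in the KO response, against 11.1% and 13.7% of genes, and 2 higher and 1 lower (*HES7*) in the WT response, against 3.58% and 5.5%. With a log2 fold change of at least 1 also required, *HEY1* remained in the WT response and *HEY1* and *HES1* in the KO response, rules that 0.349% and 1.41% of genes passed as higher. The median log2 fold change of the 8 genes was 0.12 in WT and 0.47 in KO cells, and that of the genes tested was 0.0016 and 0.0056.

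**Figure D3:**
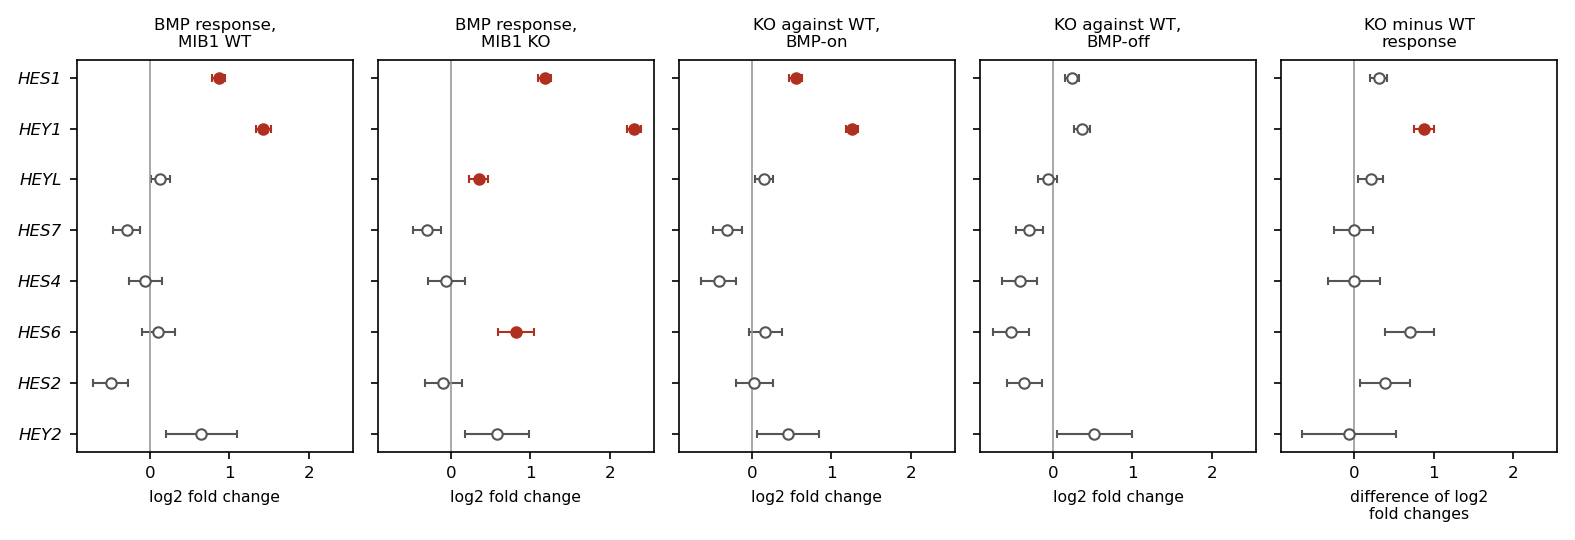
Log2 fold changes of the 8 genes (x axis, bars 1 standard error) from the edgeR fit, 1 panel for each of the 5 comparisons. Filled red points passed the test (threshold 0.05, adjusted over the 17188 genes tested), which are 2, 4, 2, 0 and 1 of the 8 genes from left to right.

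With BMP-on, *HEY1* was 2.39-fold higher in MIB1 KO than in MIB1 WT cells (log2 fold change 1.26, standard error 0.08, edgeR adjusted p = 1.57e-07), and *HES1* 1.47-fold higher (0.55, standard error 0.077, edgeR adjusted p = 0.00062). These were the only 2 of the 8 genes called higher, and 0 were called lower, against 1.32% and 2.34% of the genes tested. With a log2 fold change of at least 1 also required, *HEY1* passed, as did 0.128% of genes in that direction. The other 6 ranged from -0.42 for *HES4* (standard error 0.22, edgeR adjusted p = 0.43) to 0.46 for *HEY2* (standard error 0.39, 0.685). With BMP-off, 0 of the 8 passed edgeR's test, and 0 passed with DESeq2 or limma-voom, against 0.00582% of genes called higher and 0.0349% lower by edgeR. Of the 8, 3 (*HEY1*, *HES1* and *HES6*) had an unadjusted p under 0.05, as did 1757 of the 17188 genes tested. The KO and WT libraries of these 3 genes did not overlap, and how many of all genes were separated in this way was not counted. *HEY1* was higher in KO cells by 0.37 (standard error 0.10, edgeR adjusted p = 0.295) and *HES1* by 0.24 (standard error 0.085, 0.393) on the log2 scale. *HES6* was at -0.53 (standard error 0.23, edgeR adjusted p = 0.46), and at -0.33 with the GC correction (0.591).

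Whether MIB1 loss changed the response itself was tested by the interaction, the KO response minus the WT response. *HEY1* passed, with a difference of 0.88 on the log2 scale (standard error 0.13, edgeR adjusted p = 0.0112), which is a 1.84-fold larger rise in KO cells. It was 1 of 7 genes (0.0407% of those tested) with a larger log2 fold change in KO cells, and 0.0524% had a smaller one. The size of the difference lay between 0.81 and 0.94 over the 23 alternatives, and the call held in 15 of them. It was lost without WT BMP-off replicate 3 (0.81, edgeR adjusted p = 0.0753), without WT BMP-on replicates 2 or 3 (0.0502 and 0.0518), without KO BMP-off replicate 1 (0.0639) and without KO BMP-on replicates 2 or 3 (0.0525 and 0.0542). With the GC correction the difference was 0.92 (edgeR adjusted p = 0.000779). For *HES1* it was 0.31 (standard error 0.11, edgeR adjusted p = 0.341), for *HES6* 0.70 (standard error 0.31, 0.446) and for *HEYL* 0.21 (standard error 0.16, 0.632), so that a larger response in KO cells was not shown for these genes. Their GC-corrected differences were 0.3, 0.39 and 0.11 (edgeR adjusted p = 0.201, 0.612 and 0.741).

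For comparison, 12 established targets of BMP were taken, among them the ID genes, inhibitory SMADs and secreted antagonists. Of the 11 tested, 10 were called higher in each response and *MSX1* in neither. Among the largest rises in WT and KO cells, in this order, were 2.41 and 2.19 on the log2 scale for *SMAD9*, a BMP-activated SMAD, 1.44 and 1.42 for the inhibitory *SMAD6*, 1.27 and 1.71 for *ATOH8* and 1.29 and 1.39 for *ID2*. The median log2 fold change was 1.27 in WT and 1.39 in KO cells, so that *HEY1* lay above this median in both and *HES1* below it in both. The nearest values to those of *HEY1* were those of *BAMBI*, a pseudoreceptor that blunts BMP signaling, at 1.35 and 2.31, and of *NOG*, a secreted BMP antagonist, at 1.45 and 2.30. *BAMBI* was the only gene of this list to pass the interaction test (0.96, standard error 0.12, edgeR adjusted p = 0.00263). *HES1* lay among *MSX2* (0.94 and 1.27), *ID1* (0.94 and 1.08) and *SMAD7* (1.11 and 1.35). With BMP-on, 7 of the 11 were called higher in KO cells, from *SMAD6* at 0.41 (a call held in 7 of the 12 fits with a library left out) to *NOG* at 1.24. With BMP-off, 1 was, *SMAD9* at 0.97 (edgeR adjusted p = 5.65e-05), and *ID1* was as well with the GC correction (0.31, 0.0104). All of these comparisons share libraries with those of the members and are given side by side only.

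The other targets of Notch did not move together. Of 10 genes on the list (*NRARP*, *DTX1*, *DTX4*, *NOTCH3*, *LFNG*, *MYC*, *CCND1*, *SNAI2*, *SOX9* and *PTCRA*), 8 were tested, of which *NOTCH3* and *LFNG* are also pathway genes. In WT cells 3 were called higher and 1 lower, and in KO cells 4 were called higher and 1 lower. These calls made up 50.0% of the 8 in WT and 62.5% in KO cells, against 3.92% and 22.0% of all genes tested. *SOX9*, a regulator of cartilage and progenitor cells that is also known to respond to BMP, rose by 0.94 in WT (standard error 0.078, edgeR adjusted p = 1.89e-06) and by 1.17 in KO cells (standard error 0.075, 3.29e-08), beside 0.87 and 1.18 for *HES1*. *CCND1*, the gene of cyclin D1, rose by 0.26 in both (edgeR adjusted p = 0.00929, held in 9 of the 12 fits with a library left out, and 0.00249, held in all), *MYC* by 0.40 in KO cells (0.00097) and *SNAI2*, a regulator of epithelial to mesenchymal transition, by 1.36 in WT cells (0.0483, held in 4 of the 12, and 0.072 with a replicate block). *SNAI2* had only 3 to 16 counts in WT BMP-off and 22 to 34 in WT BMP-on libraries, and was not called in KO cells. *DTX4*, a ligase that regulates Notch receptors, fell by 0.42 in WT (standard error 0.085, edgeR adjusted p = 0.00861, held in 10 of the 12) and by 0.73 for KO (standard error 0.09, 2.55e-05). *LFNG*, a glycosyltransferase that tunes how Notch receives its ligands, rose by 1.24 in KO cells (standard error 0.16, edgeR adjusted p = 5.09e-05) and stood at 0.60 in WT cells (0.0526, and 0.0373 with the GC correction). *NRARP*, a feedback inhibitor and one of the most direct Notch targets, did not pass, at -0.18 in WT and -0.33 in KO cells (standard errors 0.15, edgeR adjusted p = 0.62 and 0.133), and was at -0.56 in KO cells with the GC correction (0.000685). Between KO and WT cells with BMP-on, *SOX9* (0.46, edgeR adjusted p = 0.00139) and *MYC* (0.31, 0.0228, held in 8 of the 12) were higher and *DTX4* lower (-0.56, 0.0016). That was 37.5% of the 8, against 3.67% of all genes tested. With BMP-off, 0 of the 8 passed edgeR's test, DESeq2 or limma-voom. Of the 8, 2 had an unadjusted p under 0.05, as did 1757 of the 17188 genes tested.

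**Figure D4:**
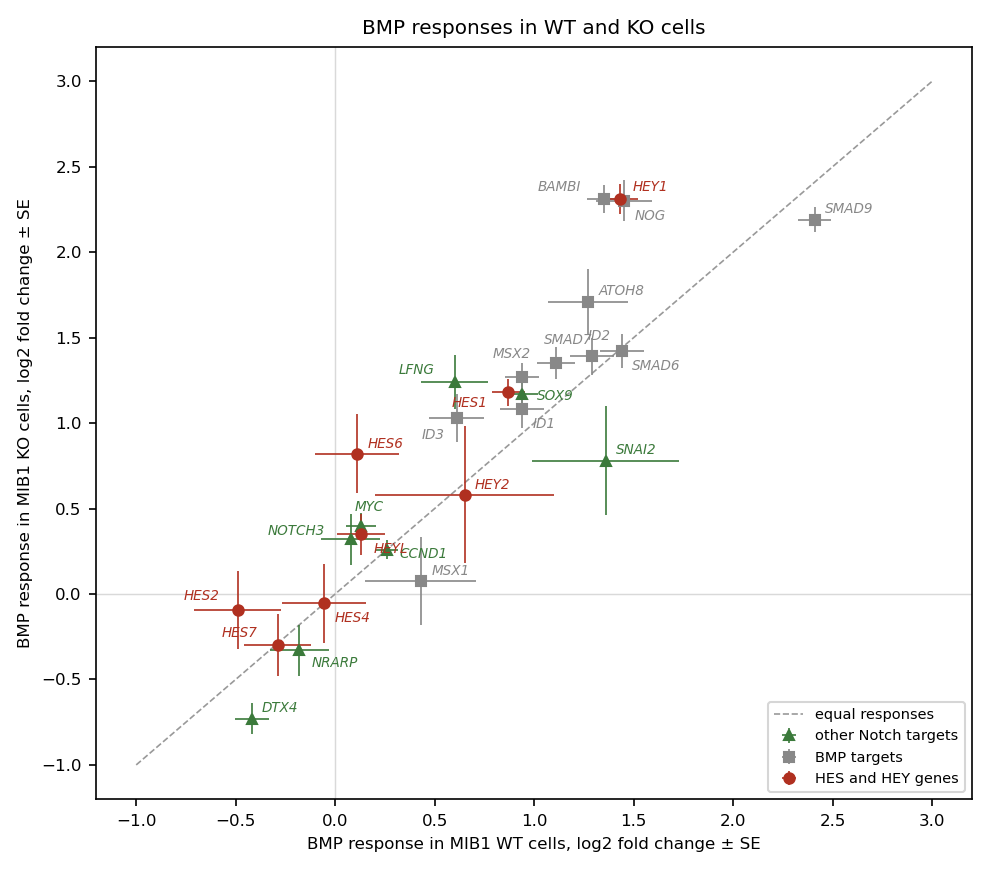
Log2 fold change with BMP-on in WT cells (x axis) and KO cells (y axis), with standard errors, for the 8 *HES* and *HEY* genes (red), 11 BMP targets (gray) and 8 other Notch targets (green). Points above the dashed line rose more in KO cells. *HEY1* lies with *BAMBI* and *NOG*, *HES1* with *MSX2*, *SOX9* and *ID1*, and *HES4*, *HES7* and *HES2* near or below 0.

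Components of the Notch pathway itself were expressed. *NOTCH2* was its most abundant receptor, at 63.9 to 79.3 RPKM as means of the groups, against 28.2 to 34.4 for *NOTCH3* and at most 1.38 for *NOTCH1*. Of the ligands, *JAG1* stood at 10.9 to 13.8 RPKM and *DLL1* and *DLL4* at no more than 0.118. Besides *MIB1*, 30 of 33 pathway genes were tested. In the WT response 1 was called higher (*MAML3*, a coactivator, 0.28, edgeR adjusted p = 0.0311, and 0.0563 with a replicate block) and 1 lower (*APH1B*, a γ-secretase subunit, -0.26, 0.0196), held in 8 and 7 of the 12 fits with a library left out. In the KO response 6 were called higher and 4 lower, 33.3% of the 30, against 22.0% of all genes tested. The 6 called higher had the largest changes of these 10. *LFNG* is given above, and *MIB2*, a relative of *MIB1*, rose by 1.09 (standard error 0.26, edgeR adjusted p = 0.0134), *NEURL1*, another ligase for Notch ligands, by 0.54 (standard error 0.12, 0.00471), *MAML3* by 0.50 (standard error 0.071, 0.000104), *NUMBL*, a Numb-like inhibitor, by 0.44 (standard error 0.11, 0.0107) and *JAG1* by 0.37 (standard error 0.055, 0.000144). The call of *MIB2* was lost in 1 of the 12 fits with a library left out and that of *NEURL1* with the GC correction (edgeR adjusted p = 0.284). With that correction *MIB2* was at 0.60 and *NUMBL* at 0.17, both still called. *NOTCH1* (-0.36, edgeR adjusted p = 0.00565) and *DLL3* (-0.53, 0.0277) were called lower in the KO response with the GC correction, where 13.7% of genes were. Each of these calls was made in 2 of 24 alternatives. *RBPJ*, the DNA-binding partner of cleaved Notch, was lower by 0.18 in KO cells (standard error 0.045, edgeR adjusted p = 0.0099, held in 10 of the 12), and its adjusted p was 0.128 with the GC correction. Apart from *MIB1*, 0 of the 30 differed between KO and WT cells by edgeR's test without the GC correction. With it, *JAG1* (0.19, adjusted p = 0.0142) and *APH1A* (-0.13, 0.0197) passed with BMP-on and *NCSTN* (-0.15, 0.0493) with BMP-off. An unadjusted p under 0.05 was found for 6 in the BMP-on cells and 5 in the BMP-off cells, where DESeq2 called 0 and 1, and limma-voom 0 and 0. Of the 17188 genes tested, 2372 and 1757 had an unadjusted p under 0.05 in these comparisons.

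Of 5 other family genes, among them *HES3* and *HES5*, 3 were at or near 0 counts and the others were tested. *HES3* had 0 counts in all 12 libraries, which allows up to 0.157 CPM in the library with the fewest counts (3 counts, counting error only). *HELT* had at most 1 count and *HES5*, a main effector of Notch in neural cells, at most 2. *BHLHE40*, a circadian and stress repressor, was at 59.3 to 69.3 RPKM as means of the groups, and rose by 0.26 in KO cells (standard error 0.04, edgeR adjusted p = 0.000211). *BHLHE41* rose by 0.89 in KO cells (standard error 0.14, edgeR adjusted p = 0.000346) and was at 0.41 in WT cells (standard error 0.16, 0.188). With BMP-on it was also higher in KO than in WT cells, by 0.68 (standard error 0.14, edgeR adjusted p = 0.0101), a call that held in 9 of the 12 fits with a library left out.

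Of 12 corepressors and partners of HES and HEY proteins, 0 were called in the WT response by edgeR, DESeq2 or limma-voom. There, 1 had an unadjusted p under 0.05, as did 2637 of the 17188 genes tested. In KO cells *TLE2* was called higher (0.64, standard error 0.18, edgeR adjusted p = 0.0284) and *RUNX2* (-0.56, standard error 0.17, 0.0245) and *SIRT1* (-0.21, standard error 0.053, 0.00888) lower. These calls made up 25.0% of the list, against 22.0% of all genes tested. The call of *TLE2* was lost with the GC correction (0.102) and in 4 of the 12 fits with a library left out, and that of *RUNX2* in 5. Of 10 genes that HES or HEY proteins are known to repress, 7 were not tested, among them *ATOH1* and the neurogenins, with at most 3 counts in any library. The 3 that were tested were the cell cycle inhibitors *CDKN1B* and *CDKN1C* and the endoderm and heart factor *GATA6*. *GATA6* rose with BMP-on in KO cells by 0.38 (standard error 0.11, edgeR adjusted p = 0.0197, held in 9 of the 12 fits with a library left out), and the other two did not pass.

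Among genes averaging 50 or more counts per library, those whose log2 CPM followed *HEY1* most closely over the 12 libraries were *BAMBI* (Pearson's r 0.995), *MRAS*, a small GTPase (0.993), *NOG* (0.993), *EML1*, a microtubule-associated protein (0.991), and *NEBL*, an actin-binding protein (0.991). For *HES1* they were *MRAS* (0.997), the homeobox gene *DLX2* (0.995), *NOG* (0.993), the cell cycle inhibitor *CDKN1A* (0.993) and *PLPP4*, a lipid phosphatase (0.992). *MRAS* and *NOG* stood on both lists. These 8 genes had positive log2 fold changes in both BMP responses, from 0.43 for *EML1* to 1.80 for *DLX2* in WT and from 0.78 for *MRAS* and *EML1* to 2.37 for *DLX2* in KO cells. They were picked by correlation over the same libraries, so that this direction follows from the choice. The genes nearest to *HES6* (*TMEM134*, 0.940; *MED29*, 0.932; *PEX16*, 0.928) and *HEYL* (*RIPK4*, 0.953; *BBC3*, 0.933; *GSN*, 0.931) were others, and no BMP target of the list was among their 5 nearest. Points of a group share its treatment, and those of a library its depth and GC trend.

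Deviations of the GC-rich members tended to rise with the GC trend of their library, and those of *HES1* and *HEY1* did not. The correlation was closest for *HES4* and weakest for *HES2* among these GC-rich members, and none was tested. The deviation of *HES4* from its group mean had a Pearson's r of 0.871 with the library's GC trend over the 12 libraries, that of *HES7* 0.696, of *HEYL* 0.688, of *HES6* 0.595 and of *HES2* 0.518. For *HES1* it was 0.048, for *HEY2* 0.007 and for *HEY1* -0.002. With the GC correction, *HEY1* and *HES1* hardly moved, at 1.44 and 0.87 in WT and 2.36 and 1.17 in KO cells. The corrected values of *HES4* in KO cells and of *HES7* in both responses are given above. Their standard errors were 0.17 for *HES4* and 0.13 and 0.14 for *HES7* in WT and KO cells. *HES4* was also called lower in KO than in WT BMP-on cells (-0.55, standard error 0.16, edgeR adjusted p = 0.0335), where 4.63% of genes were, but in none of the other 23 alternatives, and with the replicate block added its adjusted p was 0.0516. The number of members called in the KO response was 4 with and without the correction, but only *HES1* and *HEY1* were in both. Which of the values is nearer to the RNA in the cells was not tested.

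**Figure D5:**
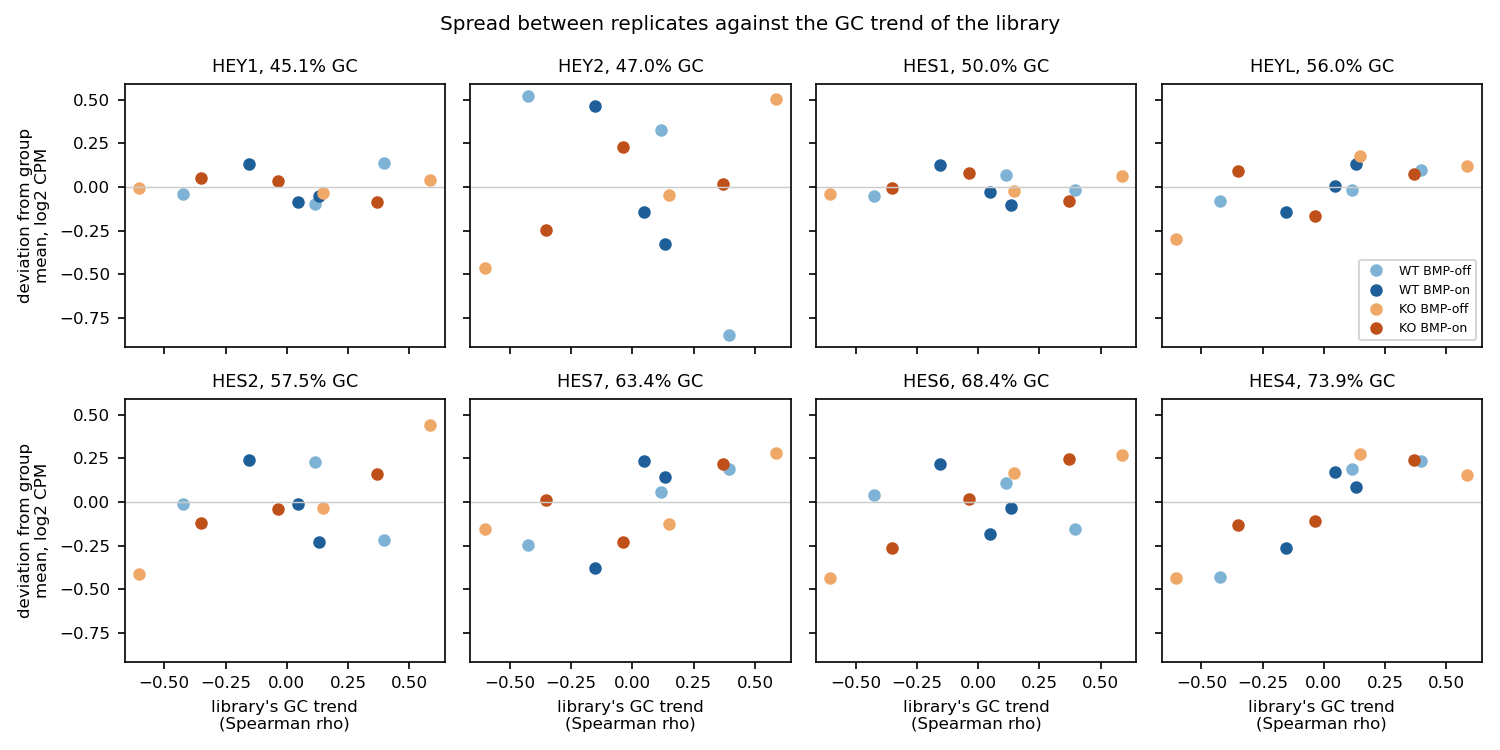
Deviation of each library from its group mean in log2 CPM (y axis) against the library's GC trend, the Spearman's rho across genes between transcript GC content and deviation from the group mean (x axis). Panels are the 8 genes in order of GC content, and colors are the groups. Deviations rise with the GC trend for *HES4* (r = 0.871) and *HES7* (0.696) and stay flat for *HEY1* (-0.002) and *HES1* (0.048).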

How the data were processed

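RNA-seq libraries of MIB1-iKO cells, 12 in 4 groups of 3, were grouped by their labels. Per the methods, the authors discarded ribosomal reads and used GSNAP and HTSeqGenie on GRCh38 with RefSeq exons. The table holds Ensembl identifiers, 57532 of 58302 with a GENCODE v44 symbol. The deposited counts are raw whole numbers, 19124010 to 29498000 per library. The deposited RPKM values served for levels per length and for 2 alternatives. There were 0 sample columns left out.

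Counts were tested with edgeR 4.0.16 in R 4.3.3 (TMM, default filter on low counts, robust quasi-likelihood fit over all libraries), after a run on simulated counts with 200 changed genes. P-values were adjusted by Benjamini-Hochberg over 17188 genes, with a threshold of 0.05. Chi-square per gene between replicates was 3.08 to 17.9, so that none was a duplicate. Alternatives were DESeq2 1.42.0, limma-voom (3.58.1) with quantile normalization, other scalings and filters, only the groups compared, a replicate block, each library left out, limma on log2(RPKM + 1) and log2(RPKM + 0.1) with a mean RPKM of at least 0.1, a loess GC correction (span 0.4) and an added log2 threshold of 1.

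The members and lists were chosen with earlier results of these data known. All members were named, of other lists the genes that passed (at most 6 by size), and the 5 genes most correlated with a member that passed in a BMP response. Others were named after their values were seen. Some listed genes are not reported here.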

Additional observations from a re-analysis of the deposited data

Results flagged for a closer look

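The BMP response of *HEY1* differed between KO and WT cells, by 0.88 on the log2 scale (edgeR Benjamini-Hochberg adjusted p = 0.0112 for the interaction), and was the larger in KO cells in all 23 alternatives. Of the comparison lists, *BAMBI* differed in the same direction, by 0.96 (edgeR adjusted p = 0.00263), and passed in 12 of 12 fits with a library left out, against 6 of 12 for *HEY1*.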

How the results depend on the processing

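Of 945 values of the 8 genes under the alternatives, 876 kept their direction and side of the threshold, 23 lost a call, 7 gained one, all with the GC correction and 39 changed direction. *HEY1* and *HES1* passed in all 24 alternatives in both BMP responses and between KO and WT cells with BMP-on. With a log2 fold change of at least 1 also required, the genes called numbered 1 in the WT response, 2 in the KO response, 1 between KO and WT cells with BMP-on and 0 in the interaction. Of all genes tested, 0.349%, 1.41%, 0.128% and 0 passed this rule as higher, in the same order. With 1 library left out, 2 to 4 were called in the KO response and 0 to 1 in the interaction. The replicate block and log2(RPKM + 0.1) each left 0 in the interaction (*HEY1* 0.88 and 0.86, adjusted p = 0.0509 by edgeR and 0.0566 by limma). Of 18 pairs of libraries with the same number, 2 had correlated deviations (r above 0.1), and among pairs with different numbers r reached 0.299. Deviations also followed the GC trend of the library, so that this check cannot decide whether the numbers pair the libraries. The replicate block alone ended no other call of the 8 genes. Of the comparison lists it ended the calls of *MAML3* (0.0563) and *SNAI2* (0.072) in WT and of *APH1B* (0.0522) in KO cells (edgeR adjusted p), and added to the GC correction that of *HES4* between KO and WT cells with BMP-on (0.0516). The causes were not tested.

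None of the values that changed direction was called. With the GC correction, without and with the replicate block, *HES6* in WT cells went to -0.091 and -0.082, *HES2* between KO and WT cells with BMP-on to -0.014 and -0.025, *HEYL* with BMP-off to 0.0037 and 0.0016 and the interaction of *HES4* to -0.41 in both. With limma-voom *HES2* with BMP-on was -0.015 and the interaction of *HES4* -0.066, which was -0.0093 with upper-quartile scaling and -0.0034 without a filter. The interaction of *HES7* was 0.011 with library size scaling and 0.0089 with the replicate block, and that of *HEY2* was 0.0065 with log2(RPKM + 1). With a library left out, *HES4* ranged from -0.26 to 0.059 in WT cells, -0.25 to 0.096 in KO cells and -0.19 to 0.19 in the interaction. *HES6* in WT cells ranged from -0.00087 to 0.21, and *HES2* from -0.28 to 0.14 in KO cells and -0.09 to 0.15 with BMP-on. *HEYL* with BMP-off ranged from -0.16 to 0.067, the interaction of *HES7* from -0.17 to 0.13 and that of *HEY2* from -0.45 to 0.29. *HEY2*, with 2 to 15 counts, gave no value with at least 10 counts in every library, and adjusted p values that DESeq2 left out were not counted.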
